A study of Homo sapiens with 18 samples.

Results

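Nicotinamide (NAM), the amide form of vitamin B3, changed genes in both BT20 and MDA-MB-468 cells, and the difference between those responses is described here gene by gene. Both are established human triple-negative breast cancer (TNBC) lines, a class of tumour that lacks the oestrogen and progesterone receptors and does not amplify ERBB2. RNA-seq libraries were made from each line as control and after 20 mM NAM for 48 h, with 3 libraries per group, so 12 of the 18 libraries of the series enter the comparison. The remaining 6 are MDA-MB-231 libraries. BT20 cells were grown in RPMI medium and MDA-MB-468 cells in DMEM, so line and medium cannot be told apart, and each line is a single model. In the paper's viability assay, BT20 was inhibited at a lower NAM concentration than MDA-MB-468. The shared 20 mM may therefore not be an equal dose in effect, which cannot be told apart from line. The labels do not say whether the replicates were separate cultures, so p-values measure only the spread between these libraries, which may be technical. The description of the controls can be read as RNA taken before treatment or at the same time as the treated cells, and in the first case NAM and time in culture cannot be told apart.

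The quantity reported throughout is a difference of differences on the log2(FPKM + 1) scale, namely the NAM effect in MDA-MB-468 minus the NAM effect in BT20. FPKM is the deposited unit, fragments scaled to gene length and to the library's mapped total, and the added pseudocount of 1 understates the change of genes with low values. A negative difference means that NAM moved a gene further down, or less far up, in MDA-MB-468 than in BT20. Genes were tested where FPKM was at least 1 in at least 3 libraries of each line, which left 13083 of the 60676 genes in the table. A call is an adjusted p under 0.05 from the limma moderated test with Benjamini-Hochberg adjustment over all 13083 genes, and "rose" or "fell" within a line means a call for that line in the same model. In bulk RNA, fewer cells that express a gene and less RNA per cell cannot be told apart.

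Members of a few known programmes were among the genes that differed. Interferon-stimulated genes are switched on after cells sense viral-type RNA or DNA or receive interferon, and some tumour lines express them without infection. ATF4 is a transcription factor whose protein is made when a kinase phosphorylates the initiation factor eIF2, as in amino acid shortage or stress of the endoplasmic reticulum (ER), and its targets include amino acid transporters, aminoacyl-tRNA synthetases and the stress factors DDIT3, TRIB3 and CHAC1. Genes of DNA replication and mitosis are made as cells cycle, and their level follows the share of cells in S, G2 and M phase.

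Sequences near the RefSeq start of a few of these genes are shown because each holds a match to a motif of its programme. They are RefSeq GRCh38.p14 sequence read 5′ to 3′ on the gene's strand, from the window of 250 bases before to 50 after each gene's start, with the motif in capitals as it reads on that strand. The first 4 hold the interferon-stimulated response element (ISRE), searched as a pair of GAAA half-sites with 2 bases between them on both strands. The last 4 hold the C/EBP-ATF response element (CARE) bound by ATF4, searched as TGATGNAA on both strands.
IFIT1, chr10:89392495-89392541, plus strand: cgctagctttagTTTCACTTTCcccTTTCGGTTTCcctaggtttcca
IFIT3, chr10:89327829-89327896, plus strand: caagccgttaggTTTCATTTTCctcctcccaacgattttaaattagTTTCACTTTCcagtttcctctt
IFI6, chr1:27672264-27672360, minus strand: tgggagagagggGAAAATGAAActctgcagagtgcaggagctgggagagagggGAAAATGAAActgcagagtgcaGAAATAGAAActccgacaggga
ISG20, chr15:88638935-88638968, plus strand: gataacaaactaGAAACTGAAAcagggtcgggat
CHAC1, chr15:40953250-40953281, plus strand: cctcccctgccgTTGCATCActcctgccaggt
ATF3, chr1:212565204-212565235, plus strand: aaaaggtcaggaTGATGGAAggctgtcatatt
AARS1, chr16:70289674-70289705, minus strand: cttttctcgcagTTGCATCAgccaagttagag
IARS1, chr9:92293698-92293722, minus strand: attttcagcgcgTTGCATCAcctcc

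Promoter windows matched 9118 of the tested genes. An ISRE was present in 238 of them (2.61%) and in 22 of the 35 matched interferon-stimulated genes (62.9%). Among those 35, it was present in 10 of 19 genes called for the difference between lines and in 12 of 16 genes not called. The CARE letters occurred in 146 windows (1.6%), in 3 of 25 matched ATF4 targets (12%) and in 6 of 18 matched synthetases (33.3%). The 3 ATF4 targets, ATF3, CHAC1 and FGF21, were all called, as were 4 of the 6 synthetases with the letters, AARS1, CARS1, IARS1 and MARS1. Such matches describe the window only.

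NAM moved genes in both lines, with more calls in BT20. In BT20, 1161 genes rose (8.87% of those tested) and 1245 fell (9.52%), while in MDA-MB-468 487 rose (3.72%) and 623 fell (4.76%). The difference between the lines was called for 392 genes, 3.00% of those tested, of which 155 were positive (1.18%) and 237 negative (1.81%). The smallest difference among the calls was 0.75 in size and the median difference over all tested genes was -0.01. Before adjustment, an unadjusted p under 0.05 was reached by 8.47% of tested genes in the positive and 9.02% in the negative direction. The 3 control and 3 NAM libraries did not overlap for 39.2% of tested genes in BT20 and 27.4% in MDA-MB-468, the background for each statement on overlap below. Without further scaling of the FPKM values 393 genes were called, of which 200 were positive and 193 negative, with the median over all tested genes at 0.04. A model with the replicate number as a block in that line called 728 genes, of which 337 were positive and 391 negative. Each call was also tested with each of the 12 libraries left out. The number of calls then ran from 98 without BT20 control replicate 2 to 646 without MDA-MB-468 NAM replicate 1, and 76 of the 392 genes (22 positive, 54 negative) were called in all 12 of these fits. Those are described below as held.

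**Figure D1:**
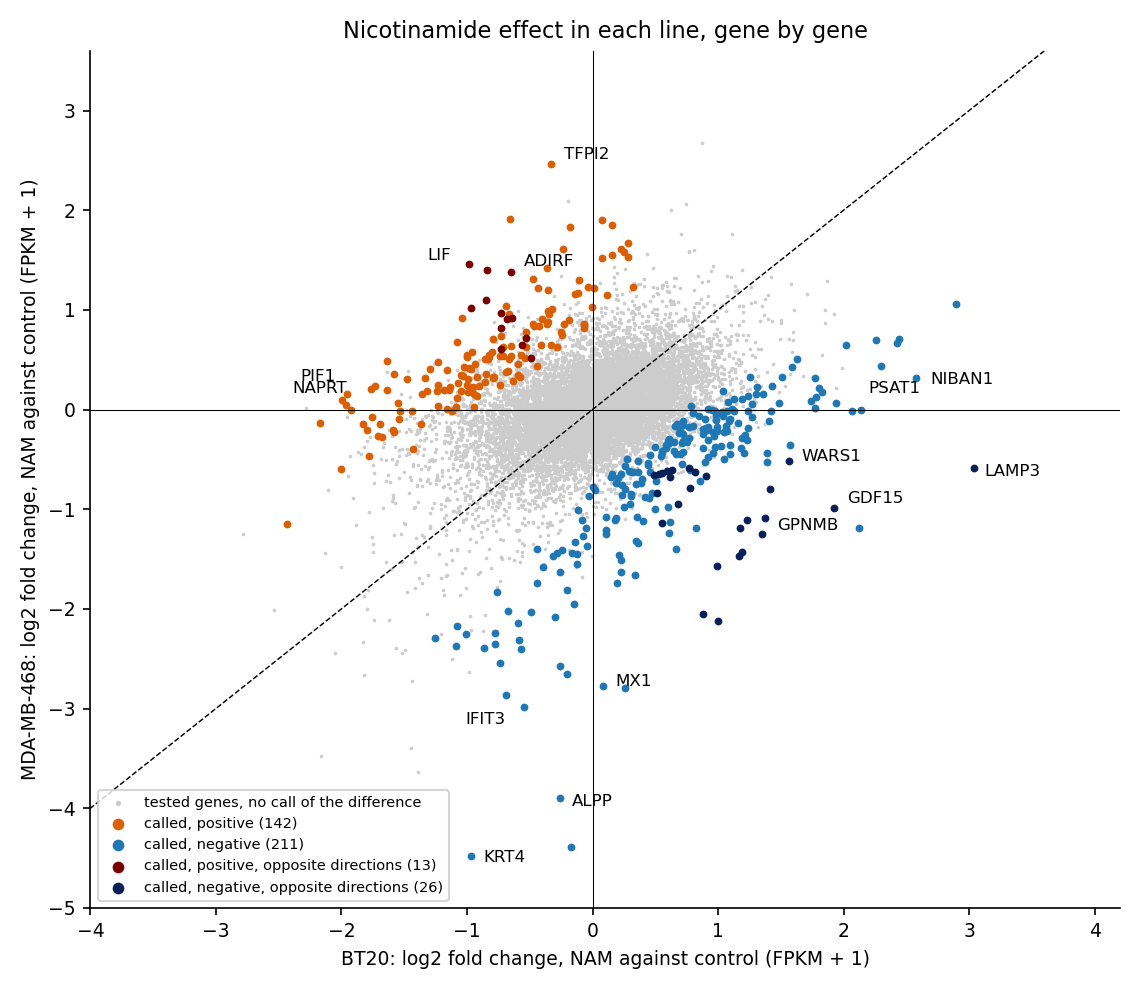
Each point is 1 of the 13083 tested genes, with its NAM effect in BT20 on the horizontal axis and in MDA-MB-468 on the vertical axis, both as differences in log2(FPKM + 1). The 392 genes called for the difference between lines lie away from the diagonal of equal effects, 155 above it and 237 below it.

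Most of the 392 genes were called in a single line. Of these, 112 (28.6%) rose in BT20 with no call in MDA-MB-468, 90 (23.0%) fell in BT20 alone, 77 (19.6%) fell in MDA-MB-468 alone and 46 (11.7%) rose in MDA-MB-468 alone. Opposite calls were made for 26 genes (6.63%) that rose in BT20 and fell in MDA-MB-468 and for 13 (3.32%) with the reverse pattern. Both lines moved the same way, by unequal amounts, for 15 genes that fell and 4 that rose, and 9 genes had no call in either line.

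The genes also differed in their starting levels. Of the 237 negative genes, 177 (74.7%) had the higher control mean in MDA-MB-468, compared with 47.4% of all tested genes and 41 of the 155 positive genes (26.5%). Under NAM these counts were 89 of 237 (37.6%) and 110 of 155 (71.0%). The difference between lines is computed from the same control libraries, so the starting level is not independent of it. By biotype, 302 of 10363 tested protein-coding genes (2.91%) and 72 of 2127 long non-coding RNAs (3.39%) were called.

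Library and identity values were as follows. Reads summed over genes, recovered from the step size of the FPKM values, ran from 12398728 in MDA-MB-468 control replicate 1 to 23076646 in BT20 NAM replicate 2. All 12 epithelial markers listed passed the expression filter, whereas none of the 8 mesenchymal markers did. Of 16 markers of other cell types 1 passed, and of the oestrogen receptor, progesterone receptor and ERBB2 only ERBB2 passed. Some of the markers that did not pass were present in 1 line and lower there after NAM. CD14, a monocyte receptor, stood at 108, 114 and 95.1 FPKM in MDA-MB-468 controls and 39.7, 34.2 and 33.8 after NAM, and FN1 (fibronectin) at 22.5, 26.9 and 22.6 and then 3.46, 3.59 and 3.26. CDH5, an endothelial cadherin, stood at 12.9, 23.6 and 23.0 FPKM in BT20 controls and 8.53, 7.53 and 4.01 after NAM. Others were not lower. TWIST1 had means of 0.783 FPKM in MDA-MB-468 controls and 1.76 after NAM, and VIM overlapped in BT20 (3.90, 3.47 and 3.76 and then 2.44, 4.48 and 2.92). The summed level of the 16 markers was 99 to 119 FPKM in MDA-MB-468 controls and 36.8 to 42.6 after NAM, and 17.2 to 28.0 and then 7.24 to 11.5 in BT20. Between 3 and 6 of the 16 were at 0 in each library.

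Interferon-stimulated genes formed the group with the most negative calls. Of 45 tested, 21 were negative and none positive, with a median difference of -1.13. In MDA-MB-468 34 of the 45 fell and none rose (median effect -1.39), and in BT20 16 fell and none rose (median -0.45). The call is thus for a larger decrease in MDA-MB-468 on the log2(FPKM + 1) scale. In that line 20 of the 21 called genes also had the higher control mean, and their median control level was 17.4 FPKM against 4.95 in BT20. The control mean was also higher there for 37 of the 45 tested (82.2%) and 47.4% of all tested genes. The difference is computed from the same control libraries, so the count of 20 is not independent of the calls. The pseudocount of 1 compresses a decrease more at the lower level, which makes the difference more negative. Summed over the 60 listed genes, the level was 3090 to 3311 FPKM in MDA-MB-468 controls and 1143 to 1279 after NAM, whereas BT20 held 1297 to 1440 in controls and 766 to 1099 after NAM. The treated MDA-MB-468 libraries were therefore all below the BT20 controls on this sum. The summed markers of other cells given above were also lower in the NAM libraries of both lines. CD14 made up most of that sum in MDA-MB-468 (means of 106 FPKM in controls and 35.9 after NAM). It stayed under 1 FPKM in every BT20 library, where CDH5 made up most of the sum (19.8 and then 6.69). The other leukocyte markers listed, PTPRC, CD3E, CD68, LYZ and CD79A, were at or below 0.537 FPKM in every library. The part of these markers was not tested.

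MX1, a dynamin-like GTPase that blocks viruses (chr21:41420020-41470071, GRCh38), showed the change in MDA-MB-468 alone. Its FPKM values were 103, 131 and 135 in MDA-MB-468 controls and 12.7, 20.0 and 17.4 after NAM, against 2.73, 3.48 and 3.39 and then 3.06, 3.85 and 3.83 in BT20. The groups did not overlap in MDA-MB-468 and overlapped in BT20, and the difference was -2.86 ± 0.25 (SE, n = 3 per group, limma adjusted p = 6.08e-05). IFIT1 and IFIT3 encode proteins that bind viral RNA ends, and their genes lie close together on chromosome 10 (chr10:89392546-89406487 and chr10:89327307-89377473). IFIT1 went from 46.7, 34.8 and 47.1 FPKM to 4.89, 4.72 and 4.79 in MDA-MB-468 and from 1.81, 2.26 and 1.73 to 0.818, 1.17 and 0.522 in BT20. It fell in both lines, by 2.87 and by 0.69, and the difference of -2.18 ± 0.24 had an adjusted p of 0.000396 (limma). The BT20 values of IFIT1 are low, so the pseudocount compresses the fall there. IFIT3 moved from 44.8, 28.5 and 34.2 to 4.41, 2.82 and 3.32 in MDA-MB-468 and from 3.38, 2.99 and 3.06 to 1.29, 2.39 and 2.06 in BT20, a difference of -2.44 ± 0.28 (limma adjusted p = 0.000472).

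**Figure D2:**
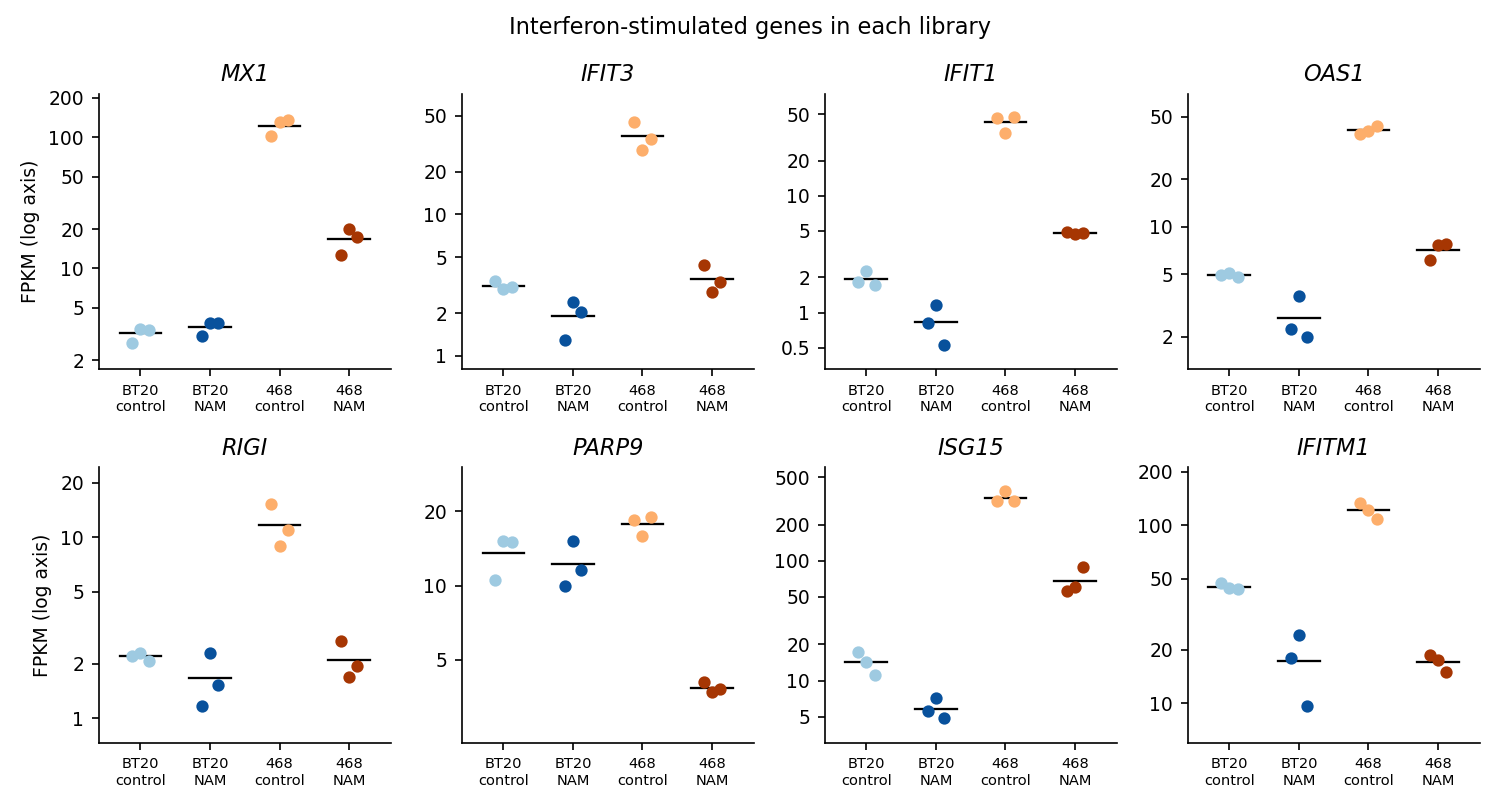
FPKM of interferon-stimulated genes in each of the 12 libraries on a log axis, with each point a library and the groups marked by line and treatment. For MX1 the MDA-MB-468 points drop from 103 to 135 in controls to 12.7 to 20.0 after NAM, while the BT20 points stay between 2.73 and 3.85.

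Sensors and effectors of the same group were among the calls. RIGI, the cytosolic sensor of viral RNA (chr9:32455302-32526208), went from 15.3, 8.98 and 11 FPKM to 2.68, 1.70 and 1.95 in MDA-MB-468, with 2.22, 2.31 and 2.07 and then 1.17, 2.31 and 1.53 in BT20. Its difference was -1.78 ± 0.28 (limma adjusted p = 0.00470), with no call in BT20. OAS1, which makes the second messenger that activates RNase L, went from 39.0, 40.5 and 44 to 6.17, 7.61 and 7.73 in MDA-MB-468 and from 4.97, 5.10 and 4.77 to 2.23, 3.64 and 1.99 in BT20. It fell in both lines, and the difference was -1.58 ± 0.25 (limma adjusted p = 0.00583). PARP9, an ADP-ribosylation factor of the interferon response, started at closer levels in the lines, at 18.4, 15.9 and 18.9 FPKM in MDA-MB-468 controls against 10.5, 15.2 and 15 for those of BT20. After NAM it was 4.06, 3.69 and 3.81 in MDA-MB-468 but 9.95, 15.1 and 11.6 in BT20, a difference of -1.80 ± 0.25 (limma adjusted p = 0.00220). MX1, IFIT1, IFIT3, RIGI, OAS1 and PARP9 were the 6 held genes of the group.

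Other members fell in both lines by amounts whose difference was not called. ISG15, a ubiquitin-like modifier, went from 315, 379.9 and 313 FPKM to 56.1, 60.9 and 88.3 in MDA-MB-468 and from 17.2, 14.3 and 11.2 to 5.52, 7.10 and 4.83 in BT20. It fell by 2.25 and by 1.21, and the difference of -1.05 ± 0.28 had an adjusted p of 0.0624 (limma). UBA7, the activating enzyme for ISG15, fell by 1.52 in each line, and the adjusted p of its difference was 0.997. By contrast IFI6, a mitochondrial and ER protein whose window with 3 ISRE matches is printed above, went from 326, 321 and 297 to 101, 121 and 127 in MDA-MB-468, against 26.1, 18.7 and 17.0 and then 16, 19.6 and 13.8 in BT20. Its difference was -1.16 ± 0.25 (limma adjusted p = 0.0257), a call lost without BT20 control replicates 2 or 3, or MDA-MB-468 NAM or control replicates 2 or 3 (0.0526 to 0.0886). Fewer interferon-stimulated genes were called without BT20 control replicate 2 (7), MDA-MB-468 NAM replicate 3 (8), MDA-MB-468 control replicate 3 (11), MDA-MB-468 NAM replicate 2 (12) or BT20 control replicates 1 or 3 (13 each). With genes kept on 3 of the 12 libraries rather than 3 of each line, 34 of 58 were called, but the added genes could pass through high values in MDA-MB-468 alone, which fixes their direction, so this larger count supports nothing.

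Upstream of these genes the calls were few. Among 19 tested genes of interferon signalling and nucleic acid sensing, 2 were negative and none positive. IRF7, which drives interferon transcription, differed by -1.42 (limma adjusted p = 0.0335). IRF7 stood at 13.4, 12.1 and 9.17 FPKM and then 25.2, 14.6 and 26.9 in BT20, where it rose, and at 49.6, 46.2 and 45.7 and then 25.1, 34.5 and 39.9 in MDA-MB-468. It lost its call in 10 of the 12 leave-one-out fits, all but those without BT20 NAM replicate 2 or MDA-MB-468 NAM replicate 1 (limma adjusted p 0.0522 to 0.0953). Apart from these upstream genes, no gene of antigen presentation was called among 20 tested (1 at an unadjusted p under 0.05). Of 16 tested NF-kB targets and chemokines 1 was positive. At an unadjusted p under 0.05, 7 of the 16 were positive and 1 negative, against 8.47% and 9.02% of all tested genes. In BT20 2 of the 16 rose and 7 fell, and in MDA-MB-468 1 rose and 1 fell. Interferon genes themselves did not pass the filter, IFNL1 through its BT20 values and IFNB1 in both lines, and their values carry no test. IFNL1 stood at 4.73, 8.64 and 8.18 FPKM in MDA-MB-468 controls and 0.201, 0.363 and 0.650 after NAM, and IFNB1 at 1.83, 0.977 and 1.05 and then 0.185, 0.201 and 0.15. OAS2, likewise untested, went from 45.5, 37.3 and 51.0 to 2.89, 2.08 and 2.15 in that line.

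ATF4 targets of the amino acid response also gave negative differences, through increases in BT20. Of 30 tested, 12 were negative and none positive, with a median difference of -1.08. In BT20 20 rose and none fell (median effect 1.03), whereas in MDA-MB-468 2 rose and 2 fell (median 0.08). All 12 called genes had the higher control mean in MDA-MB-468, as did 25 of the 30 tested (83.3%) and 47.4% of all tested genes. The difference is computed from the same control libraries, so this count is not independent of the calls. Summed over the list, the BT20 level went from 957 to 1152 FPKM in controls to 1806 to 2028 after NAM, and MDA-MB-468 held 2009 to 2626 and then 2445 to 2530. Of the 3 treated BT20 libraries, the highest (2028) exceeded the lowest MDA-MB-468 control (2009).

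PSAT1, an enzyme of serine synthesis (chr9:78297125-78330093), was among the most abundant. It went from 43.0, 49.1 and 47.6 FPKM to 193, 213 and 213 in BT20 and from 218, 137 and 169.6 to 275, 225 and 224 in MDA-MB-468, a difference of -1.86 ± 0.25 (limma adjusted p = 0.00167). CHAC1, which degrades glutathione, went from 5.01, 5.19 and 3.54 to 29.5, 26.5 and 27.3 in BT20 and from 25.5, 23.0 and 19.3 to 29.8, 44.3 and 42.8 in MDA-MB-468. It rose in both lines, by 2.44 in BT20 and 0.71 in MDA-MB-468, and the difference was -1.73 ± 0.25 (limma adjusted p = 0.00298). DDIT4, an inhibitor of mTORC1, stood at 24.2, 20.0 and 20.0 and then 116, 57.2 and 93.3 in BT20, and at 323, 246 and 230.2 and then 252, 259.6 and 271 in MDA-MB-468. Its difference was -2.09 ± 0.33 (limma adjusted p = 0.00519), and its MDA-MB-468 groups overlapped. TRIB3, a pseudokinase, and ATF3, a transcription factor of the same family as ATF4, differed by -1.59 ± 0.24 and -1.56 ± 0.28 (limma adjusted p = 0.00443 and 0.0116). These 5 genes were held.

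**Figure D3:**
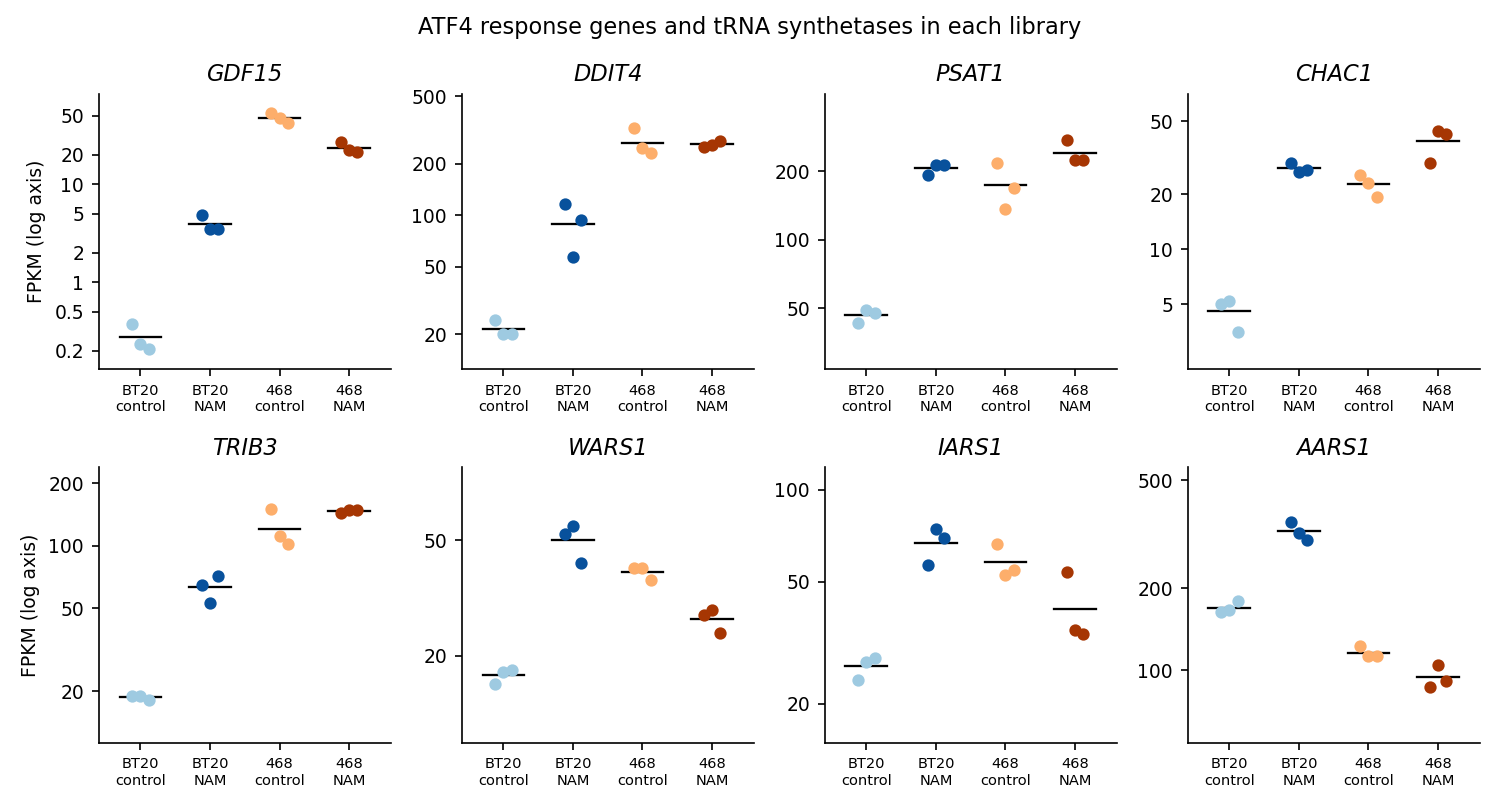
FPKM of ATF4-linked genes in each of the 12 libraries on a log axis, with each point a library and the groups marked by line and treatment. In BT20 the PSAT1 points move from 43.0 to 49.1 in controls to 193 to 213 after NAM, into the range of the MDA-MB-468 libraries (137 to 275).

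GDF15, a stress cytokine, moved in opposite directions. It went from 0.376, 0.235 and 0.206 FPKM to 4.90, 3.52 and 3.49 in BT20, where it rose by 1.93, and from 52.9, 47.9 and 42.8 to 26.8, 22.3 and 21.4 in MDA-MB-468, where it fell by 0.98. The difference was -2.91 ± 0.25 (limma adjusted p = 5.06e-05), and the gene left the tested set when any BT20 NAM library was omitted. GDF15 and NIBAN1, another called gene of the list, passed the filter in BT20 only through the NAM libraries. This fixes their increase in BT20, so that increase supports nothing. ATF4 itself had 111, 87.5 and 86.9 and then 172, 178 and 164 in BT20, and 321, 296 and 349 and then 371, 426 and 473 in MDA-MB-468, a difference of -0.59 ± 0.20 that was not called (limma adjusted p = 0.141). DDIT3, the stress factor CHOP, rose in BT20 from 15.5, 11 and 9.94 to 49.9, 62.8 and 78.6 and had 50.2, 22.6 and 27.7 and then 57.1, 47.9 and 51.2 in MDA-MB-468. Its call (difference -1.76, limma adjusted p = 0.0269) was lost without BT20 NAM replicate 3, BT20 control replicates 2 or 3, MDA-MB-468 NAM replicates 2 or 3 or MDA-MB-468 control replicate 3 (0.0554 to 0.0870), and DDIT3 overlaps MARS1 on the opposite strand. The count of 12 in the list was 6 without BT20 NAM replicate 3, and 7 without BT20 control replicate 2 or without MDA-MB-468 NAM replicate 3.

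Aminoacyl-tRNA synthetases, which charge tRNAs with amino acids, also gave negative calls with increases in BT20. Of 22 tested, 9 were negative and none positive (median difference -0.80), and 11 rose and 1, VARS1, fell in BT20, against none that rose and 1 that fell in MDA-MB-468. WARS1, the tryptophan enzyme, is also an interferon-inducible gene. It rose in BT20 from 16, 17.6 and 17.8 FPKM to 52.6, 56.0 and 41.6, and fell in MDA-MB-468 from 40.2, 40.2 and 36.4 to 27.5, 28.7 and 23.9. Its difference of -2.08 ± 0.21 (limma adjusted p = 0.000196) was the largest in size of the list. Summed over the list, the level was 1017 to 1036 FPKM in BT20 controls and 1497 to 1688 after NAM, and 1171 to 1378 and then 1066 to 1166 in MDA-MB-468, with no overlap in either line. IARS1 (isoleucine) went from 23.9, 27.3 and 28.3 to 56.6, 74.2 and 69.9 in BT20 and from 66.4, 52.8 and 54.8 to 54.0, 34.9 and 33.8 in MDA-MB-468, a difference of -1.92 ± 0.29 (limma adjusted p = 0.00387). AARS1 (alanine) and MARS1 (methionine) rose in BT20 with no call in MDA-MB-468, and their differences were -1.45 ± 0.20 and -1.35 ± 0.19 (limma adjusted p = 0.00220 and 0.00219). These 4 synthetases were held. The count of 9 was 4 without BT20 control replicate 2, 5 without BT20 control replicate 3 or MDA-MB-468 NAM replicate 2 or 3, and 4 when all 18 libraries entered the model.

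Amino acid transporters gave 4 negative calls and no positive one among 20 tested, with a median difference of -0.40, and 10 rose and 1 fell in BT20. Of the 4, SLC43A1 passed the filter in BT20 only through the NAM libraries, which fixes its increase there. SLC3A2, the heavy chain shared by several transporters, went from 54.2, 51.8 and 50.3 FPKM to 109, 101 and 115 in BT20 and from 123, 104 and 102 to 101, 125 and 119.9 in MDA-MB-468. The groups overlapped in MDA-MB-468, and the difference of -1.1 ± 0.20 (limma adjusted p = 0.0111) was held. SLC7A11, the cystine importer that pairs with SLC3A2, stood at 2.36, 2.91 and 3.04 and then 10.5, 12.2 and 14.4 in BT20, and at 5.82, 1.61 and 2.12 and then 5.60, 2.62 and 3.03 in MDA-MB-468. Its call (limma adjusted p = 0.0409) was lost in 8 leave-one-out fits, all but those without BT20 NAM replicate 1, MDA-MB-468 NAM replicate 1 or MDA-MB-468 control replicates 1 or 2 (0.0532 to 0.144). The count of 4 was 2 without BT20 NAM replicate 3, without BT20 control replicate 2 or 3, or without MDA-MB-468 NAM replicate 3. ER chaperones and other genes of the unfolded protein response gave 3 negative calls among 26 tested, with a median difference of -0.05. HERPUD1, which helps clear misfolded ER proteins, was the held one, at -1.64 ± 0.23 (limma adjusted p = 0.00212). The count of 3 was 1 under 8 of the 12 leave-one-out fits, including that without BT20 NAM replicate 3, each without a BT20 control library, and those without MDA-MB-468 NAM replicates 2 or 3.

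Genes of the cell cycle moved in BT20 but were rarely called for the difference. Of 45 tested DNA replication genes 33 fell and none rose in BT20 (median effect -0.88), against 1 that rose (ORC6) and none that fell in MDA-MB-468 (median -0.07). Of 41 mitotic genes 28 fell and none rose in BT20 (median -1.03), against none in either direction in MDA-MB-468 (median -0.07). All 45 and all 41 differences were above 0, with medians of 0.84 and 1.04, yet 1 replication gene and 2 mitotic genes were called. At an unadjusted p under 0.05 the numbers were 32 and 26. The BT20 NAM libraries were uneven: the summed mitotic level was 1490 to 1559 FPKM in BT20 controls and 582, 1109 and 598 after NAM, with replicate 2 apart from the other two. Without BT20 NAM replicate 2, 16 replication genes and 23 mitotic genes were called, and with the replicate block in MDA-MB-468 8 and 7.

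SPC25, a kinetochore subunit, went from 25.8, 22.7 and 23.8 FPKM to 5.63, 13.8 and 4.93 in BT20, with 18.1, 11.2 and 16.3 and then 21.6, 20.3 and 24.1 in MDA-MB-468. Its difference was 2.12 ± 0.41 (limma adjusted p = 0.0165). KIF2C, a kinesin that depolymerises microtubules, differed by 1.55 ± 0.39 at the edge of the threshold (limma adjusted p = 0.049997). Neither of these mitotic genes was held: SPC25 lost its call without BT20 control replicate 2 or MDA-MB-468 NAM replicate 3 (0.0508 to 0.0608), and KIF2C in 10 fits, all but those without BT20 NAM replicate 2 or MDA-MB-468 NAM replicate 1 (0.0751 to 0.152). CCNB1, the mitotic cyclin, with 93.9, 94.0 and 97.4 and then 29.4, 63.0 and 29.5 in BT20 and 85.3, 81.8 and 84.5 and then 68.0, 84.3 and 95.1 in MDA-MB-468, was not called (limma adjusted p = 0.0664).

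Outside these lists, 2 genes of genome maintenance were held. PIF1, a DNA helicase, went from 6.36, 8.64 and 7.57 FPKM to 0.873, 1.71 and 1.12 in BT20 and had 2.95, 3.05 and 2.43 and then 2.56, 4.37 and 3.84 in MDA-MB-468, a difference of 2.12 ± 0.30 (limma adjusted p = 0.00241). H2AX, the histone variant phosphorylated at DNA breaks, fell in BT20 from 169, 150.4 and 134 to 76.5, 73.2 and 56.9, while its MDA-MB-468 groups overlapped at 48.2, 43.9 and 55.1 and then 47.8, 62.8 and 65.1. Its difference was 1.36 ± 0.23 (limma adjusted p = 0.00820).

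Growth factor signalling gave calls in both directions. Among 25 genes of ERK feedback and immediate early response, 6 were positive and 3 negative, with a median difference of 0.33. ETV5, an ETS factor induced by ERK, went from 3.59, 4.99 and 5.09 FPKM to 12.9, 14.6 and 12.6 in MDA-MB-468 and had 24.3, 24.9 and 26.1 and then 25.4, 22.9 and 20.3 in BT20, a difference of 1.41 ± 0.24 (limma adjusted p = 0.00785). ETV4, its relative, fell in BT20 from 17.2, 15.8 and 16.2 to 10.3, 7.15 and 6.55, and had 16.2, 11.7 and 14.6 and then 19.3, 25 and 21.1 in MDA-MB-468. That difference was 1.55 ± 0.26 (limma adjusted p = 0.00709). MYC, a driver of growth and ribosome genes, went the other way: 13.3, 14.1 and 13.3 and then 32.9, 24.4 and 27.6 in BT20, where it rose, and 34.8, 33.5 and 36.4 and then 27.9, 24.8 and 20.9 in MDA-MB-468. The MYC groups did not overlap in either line, and its difference was -1.55 ± 0.23 (limma adjusted p = 0.00298). ETV4, ETV5, MYC and ATF3, which is also an immediate early gene, were held. FOSL1, a subunit of AP-1, differed by 1.96 ± 0.47 (limma adjusted p = 0.0417) and lost its call in 9 leave-one-out fits, all but those without BT20 NAM replicate 1, MDA-MB-468 NAM replicate 1 or MDA-MB-468 control replicate 2 (0.0611 to 0.126). The 6 positive calls were 2 without BT20 NAM replicate 3, any BT20 control library, MDA-MB-468 NAM replicate 2 or 3 or MDA-MB-468 control replicate 3, and 3 without BT20 NAM replicate 2 or MDA-MB-468 control replicate 2.

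The positive differences included secreted and signalling genes. TFPI2, a secreted protease inhibitor (chr7:93885396-93890753), went from 3.10, 2.8 and 4.61 FPKM to 27.0, 22.9 and 27.0 in MDA-MB-468 and had 1.58, 3.48 and 3.42 and then 3.09, 1.32 and 1.78 in BT20. Its difference was 2.8 ± 0.34 (limma adjusted p = 0.000698). LIF, a cytokine of the interleukin-6 family (chr22:30240453-30246759), rose from 10.5, 17.8 and 14.8 to 25.1, 59.0 and 49.9 in MDA-MB-468 and fell from 7.62, 7.47 and 7.69 to 6.04, 2.37 and 2.82 in BT20. The groups did not overlap in either line, and the difference was 2.44 ± 0.43 (limma adjusted p = 0.0110). NRGN, a calmodulin-binding protein, had 0.914, 0.901 and 1.26 and then 4.94, 9.79 and 7.52 in MDA-MB-468, where it rose, with 17.3, 10.8 and 9.94 and then 12.7, 9.40 and 3.41 in BT20. Its difference of 2.57 ± 0.53 (limma adjusted p = 0.0208) lost its call without BT20 control replicates 1 or 2, MDA-MB-468 NAM replicates 2 or 3 or MDA-MB-468 control replicate 3 (0.0525 to 0.0666). ID1, an inhibitor of basic helix-loop-helix factors and a target of BMP signalling, fell in BT20 from 179, 156 and 124 to 98.1, 105 and 76.5 and rose in MDA-MB-468 from 28.7, 23.5 and 19.5 to 40.2, 49.9 and 51.2. ID3, its relative, fell in BT20 from 60.8, 41.7 and 38.4 to 24.5, 26.8 and 18.1, with 16.1, 16.7 and 18.8 and then 22.3, 27.0 and 32.8 in MDA-MB-468. The differences of ID1 and ID3 were 1.59 ± 0.25 and 1.53 ± 0.27 (limma adjusted p = 0.00519 and 0.0110). CLDN23, a claudin of tight junctions, fell in BT20 from 4.23, 3.87 and 3.02 to 2.28, 1.49 and 2.50 and rose in MDA-MB-468 from 13.1, 14.1 and 14.6 to 26.5, 29.0 and 29.0 (difference 1.56 ± 0.22, limma adjusted p = 0.00244). TFPI2, LIF, ID1, ID3 and CLDN23 were held.

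**Figure D4:**
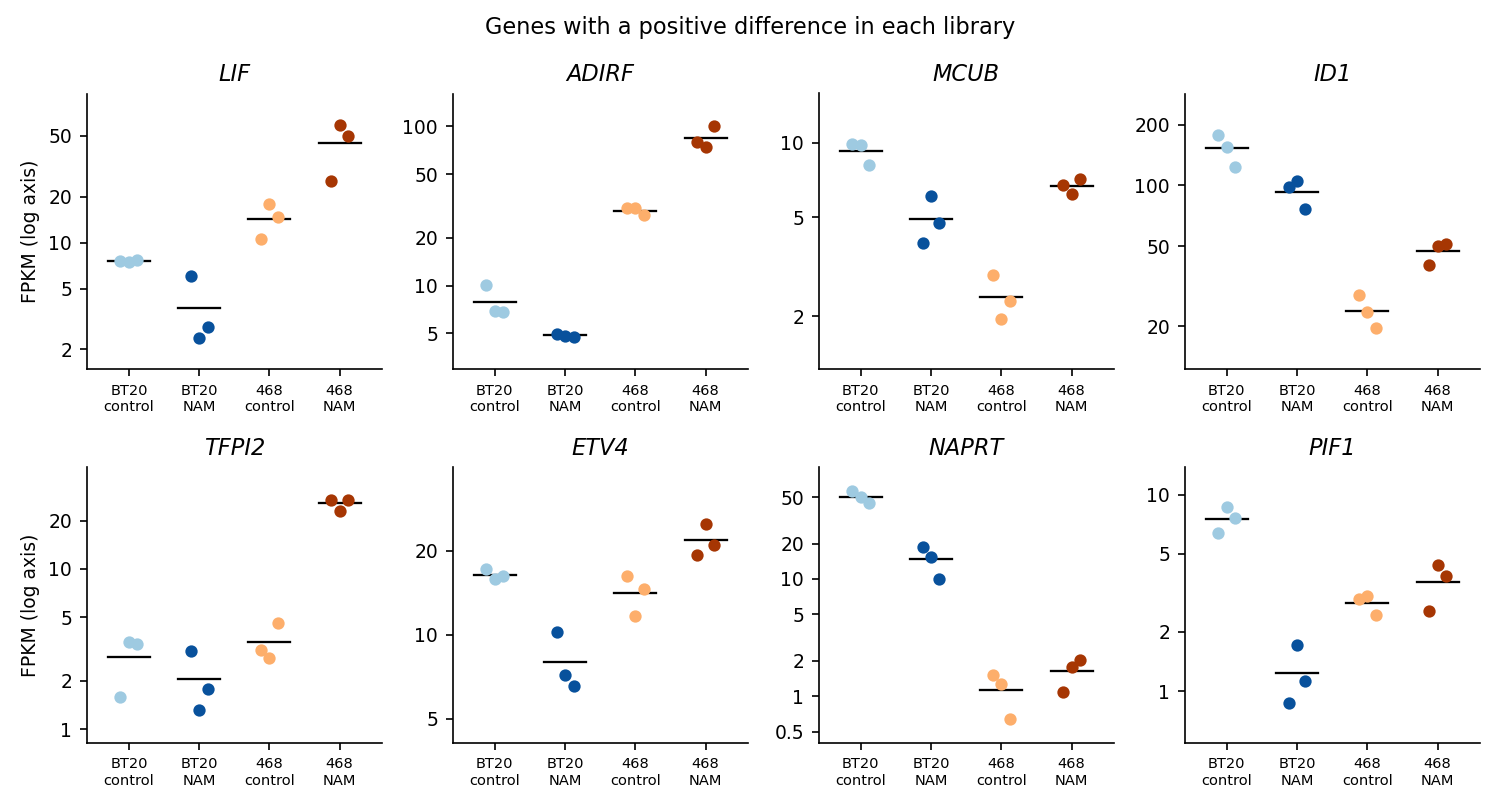
FPKM of genes with positive differences in each of the 12 libraries on a log axis, with each point a library and the groups marked by line and treatment. For LIF the MDA-MB-468 points move from 10.5 to 17.8 in controls to 25.1 to 59.0 after NAM, and the BT20 points from 7.47 to 7.69 down to 2.37 to 6.04.

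Genes of NAD and mitochondrial metabolism, which bear on NAM as a precursor of NAD, gave single calls. A single call in lists of this size is near the 3.00% called over all tested genes, so it marks neither list. Of 26 genes of NAD synthesis, salvage and use, NAPRT was called. It makes NAD from nicotinic acid rather than from NAM, and went from 56.3, 50.4 and 44.1 FPKM to 18.6, 15.5 and 9.93 in BT20, where it fell, with 1.5, 1.28 and 0.642 and then 1.1, 1.78 and 2.04 in MDA-MB-468. Its difference was 1.97 ± 0.35 (limma adjusted p = 0.0105) and was held. Its MDA-MB-468 values lie near 1 FPKM, where the pseudocount compresses any change. MCUB, the inhibitory subunit of the mitochondrial calcium uniporter, was the 1 call of 24 genes of mitochondrial calcium uptake and carriers. It fell in BT20 from 9.86, 9.81 and 8.14 to 3.96, 6.12 and 4.76 and rose in MDA-MB-468 from 2.93, 1.96 and 2.31 to 6.74, 6.19 and 7.17 (difference 1.95 ± 0.23, limma adjusted p = 0.000543, held). TST, a mitochondrial sulphurtransferase, likewise fell in BT20 from 36.1, 29.9 and 26.1 to 17.8, 20.6 and 15.6 and rose in MDA-MB-468 from 44.3, 45.5 and 39.6 to 56.8, 71.7 and 76.8, a held difference of 1.34 ± 0.23 (limma adjusted p = 0.00858).

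Fatty acid oxidation gave 2 positive calls among 23 tested genes, with a median difference of 0.13, 7 genes below 0 and 2 negative at an unadjusted p under 0.05. ACADVL, the very-long-chain acyl-CoA dehydrogenase, had 102, 124 and 122 FPKM and then 79.8, 67.4 and 69.8 in BT20, where it fell, and 90.4, 86.3 and 88.6 and then 112, 143 and 149.9 in MDA-MB-468 (difference 1.17 ± 0.23, limma adjusted p = 0.0165). ACAA1, the peroxisomal thiolase, went from 14.9, 14.3 and 13.4 to 6.72, 8.19 and 4.64 in BT20, with 9.71, 11.8 and 9.96 and then 9.77, 12.2 and 13.4 in MDA-MB-468. Its difference was 1.20 ± 0.28 (limma adjusted p = 0.0395). ACADVL lost its call without BT20 control replicates 2 or 3 or MDA-MB-468 NAM replicates 2 or 3 (0.0555 to 0.0663), and ACAA1 in all fits but those without BT20 NAM replicates 1 or 2, MDA-MB-468 NAM replicate 1 or MDA-MB-468 control replicate 2 (0.0681 to 0.139). The study drew 30 of the tested genes in its metabolic network, a list chosen on these samples and so not independent evidence. Of these DGKQ alone was called, near the share of 3.00% over all tested genes. This diacylglycerol kinase had 14.5, 18.1 and 16.4 and then 16.1, 6.96 and 8.86 in BT20, with overlap, and 4.0, 6.42 and 4.95 and then 8.49, 13.3 and 12.9 in MDA-MB-468, where it rose. The call (difference 1.62 ± 0.39, limma adjusted p = 0.0436) was lost in all leave-one-out fits but those without BT20 NAM replicate 1, MDA-MB-468 NAM replicate 1 or MDA-MB-468 control replicate 2 (0.0630 to 0.141).

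Several metabolic lists held no call at all in the limma fit. These were the TCA cycle (24 tested), complex I subunits (33), nuclear subunits of complexes III to V (35), genes encoded by mitochondrial DNA (13), mitochondrial ribosomal proteins (73), glycolysis and hypoxia genes (27) and cholesterol synthesis (23). At an unadjusted p under 0.05, cholesterol synthesis held 8 positive genes and no negative one (median difference 0.38), mitochondrial ribosomal proteins 9 positive and 2 negative, complexes III to V 2 positive, glycolysis 2 negative, and the TCA cycle and complex I 1 positive each. The genes of mitochondrial DNA held none. With limma-voom on the recovered reads 1 TCA cycle gene was called, and no gene of the other lists. With 3.00% of all tested genes called, lists of these sizes would hold few calls or none at that share. The median SE of a difference was 0.28 over all tested genes, so small differences in these lists may not have been detectable.

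**Figure D5:**
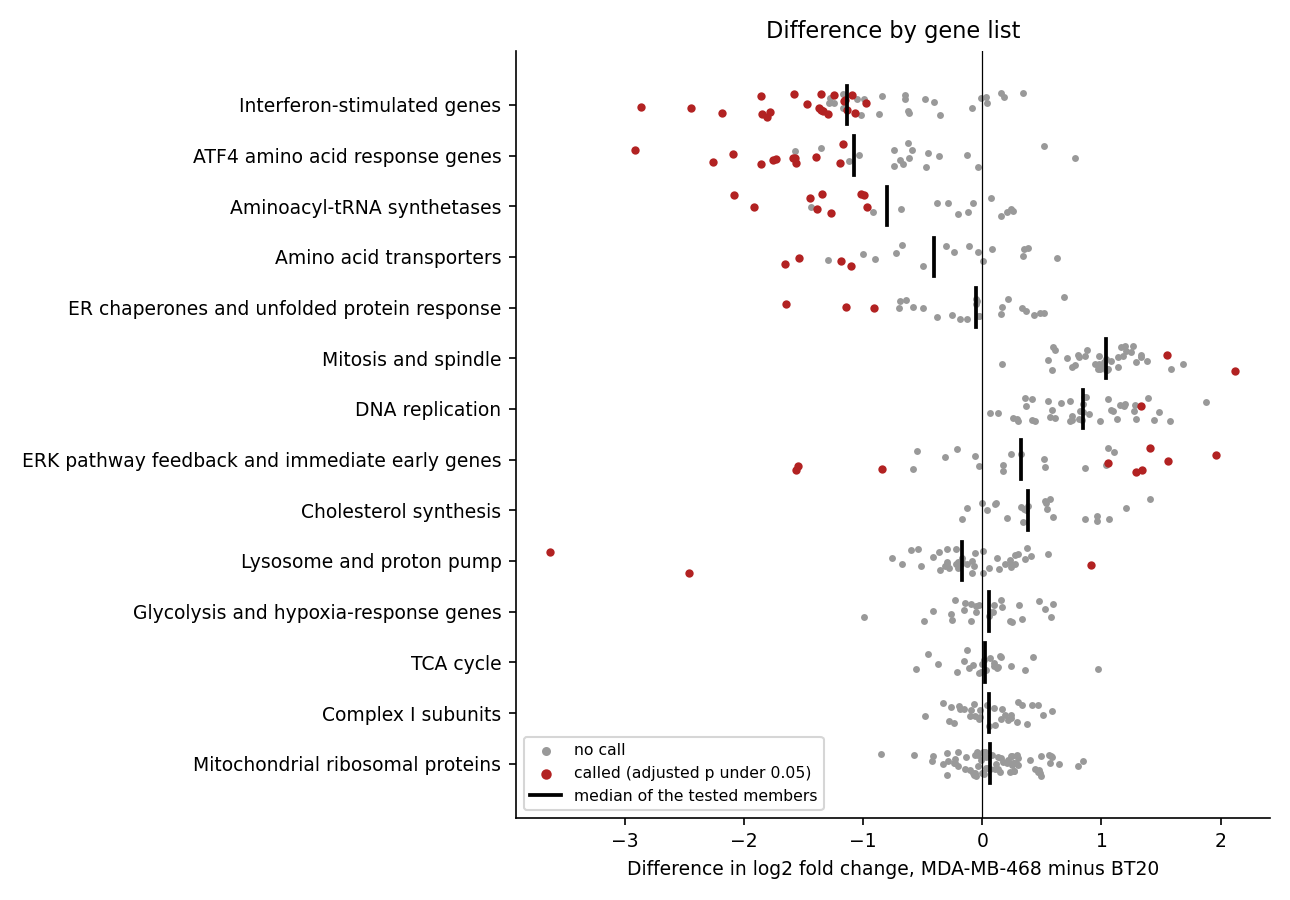
Differences between lines for the tested members of the main gene lists, each point a gene, on the log2(FPKM + 1) scale with called genes marked. Interferon-stimulated genes (median -1.13), ATF4 targets (-1.08) and synthetases (-0.80) lie mostly below 0, and replication (0.84) and mitotic genes (1.04) above it.

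Some of the largest differences belonged to keratin, surface and lysosomal genes that are not in the interferon, ATF4 or cell cycle lists used here. KRT4, a keratin of squamous epithelia (chr12:52806549-52814116), fell in both lines, from 96.6, 114 and 95.9 FPKM to 3.30, 3.42 and 3.48 in MDA-MB-468 and from 189, 238 and 245 to 114, 123 and 104 in BT20. The difference was -3.51 ± 0.24 (limma adjusted p = 9.06e-06), and KRT4 was the 1 call among 11 keratins tested. ALPP, placental alkaline phosphatase, went from 30.2, 33.1 and 26.4 to 0.949, 1.20 and 1.21 in MDA-MB-468 and had 4.50, 4.05 and 3.97 and then 5.51, 1.55 and 4.18 in BT20, with overlap. Its difference was -3.63 ± 0.36 (limma adjusted p = 0.000137), and reads may be shared with its near-identical relatives. ALPP also overlaps ENSG00000224516, an unnamed long non-coding RNA on the opposite strand with the largest difference in size of the 392 calls (-4.21), and reads of the pair cannot be told apart. LAMP3, a lysosomal membrane protein (chr3:183122215-183163839), rose in BT20 from 1.21, 1.6 and 1.51 to 18.3, 17.1 and 20.5 and fell in MDA-MB-468 from 6.69, 6.28 and 8.11 to 4.70, 4.41 and 4.27. Its difference of -3.62 ± 0.20 had the adjusted p 9.07e-07 (limma). GPNMB, a glycoprotein of lysosomes and melanosomes, also rose in BT20, from 6.55, 7.09 and 7.33 to 17.8, 23.2 and 17.3, and fell in MDA-MB-468, from 54.8, 42.7 and 45.3 to 24.4, 21.1 and 18.7 (difference -2.46 ± 0.24, limma adjusted p = 0.000137). All 4 were held. Among 45 lysosome and proton pump genes tested 2 were negative (LAMP3 and GPNMB) and 1 positive. Of 33 autophagy genes OPTN alone was called (difference -1.07, limma adjusted p = 0.0202), near the share of 3.00% over all tested genes. The OPTN call was lost without BT20 control replicates 2 or 3, MDA-MB-468 NAM replicates 2 or 3 or MDA-MB-468 control replicate 3 (0.0602 to 0.0800).

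Overlapping genes limit some of these values. Of the called genes, 68 form 35 pairs that overlap on opposite strands, and the differences had the same sign in all 35. Among them are MX1 with a long non-coding RNA, WARS1 and NAPRT each with an antisense transcript, LIF with LIF-AS2, PARP9 with DTX3L and MYC with CASC11. The strand setting of the read counting is not given in the sources used here, so reads of the partners cannot be told apart.

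The remaining line, MDA-MB-231, gives a further value for the same genes. In its own limma fit over the 13083 genes, 65 rose and 77 fell. The effect was above 0 for 6333 of the 13083 and nearer the BT20 value for 5288. The median NAM effect of the 21 called interferon-stimulated genes was 0.02 in MDA-MB-231, against -0.26 in BT20 and -1.63 in MDA-MB-468, and 20 of the 21 were nearer the BT20 value. For the 12 called ATF4 targets the MDA-MB-231 median was 0.70, against 2.0 in BT20 and 0.28 in MDA-MB-468. All 12 were above 0 and 3 of the 12 were nearer the BT20 value. None of the 12 was called in MDA-MB-231, where few genes were called at all, so the lack of a call does not show a lack of response. These values are a description, since the 21 and 12 genes were chosen by the other lines.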

How the data were processed

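Per the labels and methods, the authors trimmed reads with cutadapt 2.8, aligned them to the human genome GRCh38 with TopHat2 2.1.1, counted them per gene with HTSeq 0.11.3 and deposited FPKM values, which are not counts. Reads per library were recovered from the FPKM steps (39925 of 39935 genes gave whole reads within 0.01), which carries the precision of depth, and used for limma-voom as an alternative. From the FPKM values of 12 libraries, log2(FPKM + 1) was quantile normalized and fitted with limma 3.58.1 in R 4.3.3, after tests on simulated data. The model held 4 groups with the line-by-treatment contrast. Deviations of same-numbered control and NAM libraries correlated in MDA-MB-468 (r = 0.73, 0.65 and 0.16) and not in BT20 (-0.001, -0.10 and 0.08), so MDA-MB-468 numbers were treated as paired in an alternative. The numbers are no proof of pairing, since MDA-MB-468 control 3 with NAM 2 (0.46) and control 2 with NAM 3 (0.33) correlated more than the third pair. Named genes were first the largest calls with a group mean of at least 5 FPKM and groups that did not overlap in at least 1 line. The others were the most opposed calls by interaction p, up to 4 called members per list, and genes added after their values were seen (the uncalled, the untested and several of the held ones). Gene lists and members were chosen with earlier results of these data known. Of 60676 identifiers 42009 had a symbol. Gene positions are from GENCODE, promoter windows from RefSeq, and the gene starts of these sources can differ. The printed sequences of IFIT3, AARS1 and IARS1 lie inside the GENCODE span of the gene. The values of 1 called replication gene and 1 called interferon signalling gene are not reported here.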

Additional observations from a re-analysis of the deposited data

Results flagged for a closer look

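The count of 392 genes whose NAM effect differed between MDA-MB-468 and BT20 is listed here because the limma test addressed the difference itself. So are 20 genes called in opposite directions in the lines, 10 for each pattern, taken by the smallest interaction p. All 20 reach a group mean of 5 FPKM. Genes that rose in MDA-MB-468 and fell in BT20 were LIF (difference 2.44), CAMK2N2 (2.24), ADIRF (2.03), C16orf95-DT (1.99), MCUB (1.95), ID1 (1.59), CLDN23 (1.56), TUBA1A (1.55), TST (1.34) and PRR15 (1.25). ADIRF, a regulator of fat cell differentiation, stood at 30.5, 30.6 and 27.6 FPKM in MDA-MB-468 controls and 79.4, 74.4 and 100.2 after NAM, against 10.1, 6.91 and 6.82 and then 4.98, 4.85 and 4.77 in BT20. CAMK2N2, an inhibitor of the kinase CaMKII, went from 2.29, 3.48 and 3.80 to 11.1, 10.5 and 10.1 in MDA-MB-468 and from 84.6, 56.7 and 53.4 to 54.5, 31.0 and 24.7 in BT20. In BT20 the highest NAM library of CAMK2N2 (54.5) lay above the lowest control (53.4), so those groups overlapped. TUBA1A shares near-identical sequence with other tubulin genes.

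Genes that rose in BT20 and fell in MDA-MB-468 were LAMP3 (-3.62), KLHDC7B-DT (-3.12), GDF15 (-2.91), LINC01895 (-2.61), TGM1 (-2.60), GPNMB (-2.46), WARS1 (-2.08) and LHFPL2 (-1.57), with the unnamed long non-coding RNAs ENSG00000273272 (-2.93) and ENSG00000253196 (-2.64). ENSG00000273272 overlaps KLHDC7B-DT on the opposite strand, and their reads cannot be told apart. PRR15 lost its call without BT20 control replicate 2 or MDA-MB-468 NAM replicate 3 (limma adjusted p 0.0515 to 0.0548). GDF15, TGM1, KLHDC7B-DT and ENSG00000273272 were not tested when any BT20 NAM library was left out, nor LINC01895 when any MDA-MB-468 control library was. Each of these passed the filter in that line only through those libraries. This fixes the direction of the gene in that line, so that direction supports nothing.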

How the results depend on the processing

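No named gene with a call in the main fit changed sign under any alternative. Named genes without a call were not counted here. The excess of negative over positive calls did not hold without further normalization (200 positive and 193 negative), with the block in both lines, without BT20 NAM replicate 1 (260 and 246) or 2 (285 and 278), and was a tie without MDA-MB-468 NAM replicate 1 (323 each). The limits are those of 3 libraries per group. Of 90 to 97 named genes with a call that could be tested when a library was left out, between 52 of 97 (BT20 control replicate 2) and 96 of 96 (MDA-MB-468 NAM replicate 1) kept their call. The main count of 392 calls (155 positive, 237 negative) was 981 (405 and 576) with the FPKM minimum in 3 of the 12 libraries, 244 (97 and 147) with a minimum of 5 FPKM and 1319 (482 and 837) with no filter on low values. Leaving out 1 library gave 98 to 646 calls, 26 to 323 positive and 70 to 323 negative. With the replicate number as a block it was 728 (337 and 391) in MDA-MB-468 only, where every same-numbered pair had r over 0.1, and 988 (508 and 480) in both lines, and no call of the named genes was lost. Leaving out both first replicates of MDA-MB-468, chosen after seeing the data, gave 520 calls, 237 of them positive. The cause of these shifts was not tested, apart from the number of genes tested (16826, 7808 and 37712 under the filters). The remaining settings gave 342 to 446 calls. Among the 392 genes, the calls shared with limma-voom on the recovered reads numbered 342 of 446, all of the same sign. The planned quasi-likelihood count test was not run, because the deposited values are FPKM rather than counts.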
